A study of Mus musculus with 12 samples.

Results

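The CXCR3 and CXCR6 chemokine axes were followed through 7 genes, chosen by name: the CXCR3 ligands Cxcl9, Cxcl10 and Cxcl11, their receptor Cxcr3, the ligand-cleaving protease Dpp4, and the ligand Cxcl16 with its receptor Cxcr6. All 7 were among the 24956 gene symbols of the count table, and all 7 passed the filter on low counts. The samples were 12 tumours of PDA.69, a single mouse pancreatic ductal adenocarcinoma line that derives from KPC mice and is labelled low in T cells. Of these, 6 grew in WT hosts and 6 in Alb-Cre+/+ STAT3f/f hosts, written Alb-Cre Stat3f/f here, in which Cre under the albumin promoter removes the transcription factor Stat3 from hepatocytes. The tumour line was the same in both groups, and other host cells, leukocytes included, keep Stat3, so the tumour libraries cannot check the deletion. No group with Alb-Cre alone was among the samples, and host age, sex and strain have no entry in the labels. Whether the tumours came from separate mice is not stated either, so p-values measure only the spread among these samples.

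CXCL9, CXCL10 and CXCL11 are small secreted proteins that interferon gamma induces in macrophages, dendritic cells, endothelium and tumour cells. They bind CXCR3, a G protein coupled receptor of effector T cells, natural killer cells and some dendritic cells, and draw those cells into inflamed tissue. DPP4 removes the first amino acids of these ligands and so weakens them. CXCL16 is made as a membrane protein of macrophages, dendritic cells and epithelium that ADAM10 and ADAM17 can shed, and it binds CXCR6 on tissue-resident and effector T cells and natural killer T cells.

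The libraries were of the 3' end type, in which a transcript yields a tag near its end whatever its length. They held 5691707 to 8085609 counts, and levels are given as CPM, counts scaled to a common library size by TMM. Counting intervals in such libraries cover counting error only. Genes of normal exocrine pancreas took 0.485 to 18.5% of counts in WT tumours and 0.63 to 35.5% in those of Alb-Cre Stat3f/f hosts. The share was over 15% in 5 tumours, WT 5 and Alb-Cre Stat3f/f 1 to 4, called acinar-rich below. Over the 12 tumours, with genotype means removed, Pearson r with the acinar score was between -0.63 (Cxcl16) and 0.49 (Dpp4). The ductal epithelial markers, Krt19 among them, summed to 3443 to 4037 CPM in WT tumours and 2483 to 3266 CPM in those of Alb-Cre Stat3f/f hosts.

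The members were expressed at separate levels. In WT tumours Cxcl16 was at 93.6 ± 13.9 CPM and Cxcl9 at 64.2 ± 32.8 CPM (SD, n = 6), and with Alb-Cre Stat3f/f hosts Cxcl9 led at 177 ± 87.8 CPM ahead of Cxcl16 at 94.5 ± 26.2 CPM (SD, n = 6). In both groups the ranges of these 2 ligands overlapped. Within a tumour, however, Cxcl9 was below Cxcl16 in every WT tumour and above it in every Alb-Cre Stat3f/f tumour. All other members were lower in every tumour, with means of 12.7 CPM or less. Among these, in order of their Alb-Cre Stat3f/f means, Cxcl10, Cxcr6, Dpp4, Cxcl11 and Cxcr3, the range of each overlapped that of its neighbour. In WT tumours the order was the same but for the last places, with Cxcr3 at 1.57 ± 0.805 CPM ahead of Cxcl11 at 1.42 ± 1.17 CPM (SD, n = 6), and these ranges overlapped too. Cxcr3 rested on 5 to 27 counts per tumour.

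Between hosts, Cxcl10 was 2.28-fold higher by the fit in the Alb-Cre Stat3f/f group and passed the test. The fitted folds of Cxcl9 and Cxcl11 were larger, 2.76 and 2.70, but neither passed, and that of Cxcl16 was 1.01. Of the 7 members 1 rose (Cxcl10), 0 fell and 6 did not pass, by the quasi-likelihood test of edgeR at a Benjamini-Hochberg adjusted p under 0.05 over 12856 genes, where 2.23% of all tested genes were called higher and 0.747% lower. At an unadjusted p under 0.05, 3 members were higher, against 11.5% of all tested genes, and 0 lower. DESeq2 called 2 members higher, Cxcl9 and Cxcl10, and 0 lower. All 7 had a positive fold change, where 50% of all tested genes did. Their median log2 fold change was 0.78, and that of all tested genes was -0.00077. The members were chosen with earlier results of these data known, so these shares and medians are descriptions.

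**Figure D1:**
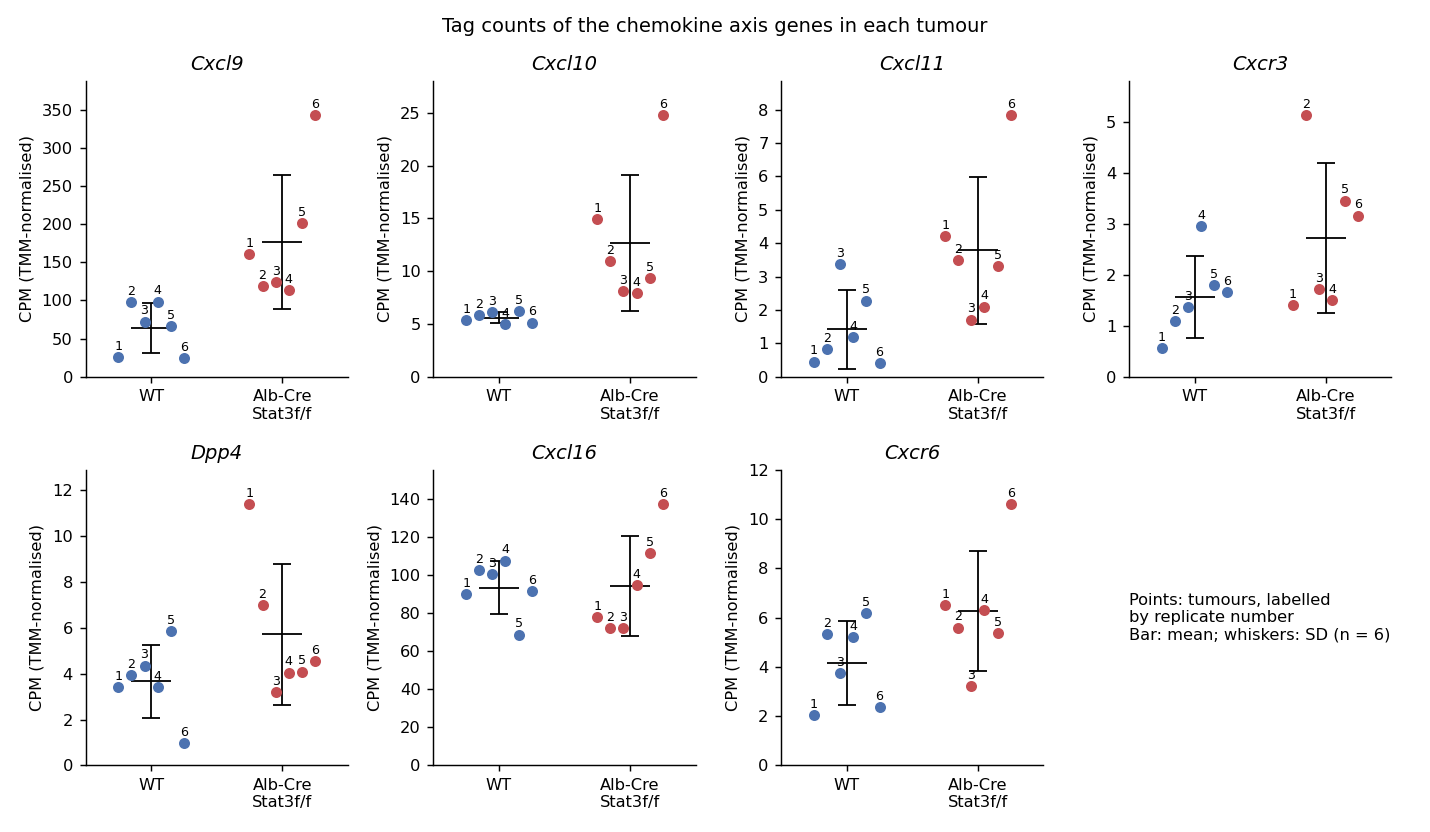
CPM (TMM-normalised, linear axis from 0) of each of the 7 genes in the 12 tumours, with WT in blue and Alb-Cre Stat3f/f in red; numbers are replicate numbers, bars the mean and whiskers the SD (n = 6). For Cxcl9 and Cxcl10 all 6 red points lie above every blue point, and in the other 5 panels the groups overlap.

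Cxcl9, the most abundant CXCR3 ligand, was at 25.9, 97.5, 72.1, 98.4, 66.4 and 24.6 CPM in WT tumours 1 to 6. Alb-Cre Stat3f/f tumours 1 to 6 held 160, 119, 124, 114, 201 and 343 CPM. WT 1 and WT 6 were the low end and Alb-Cre Stat3f/f 6 the high end, and the groups did not overlap, which was so for 1.37% of all tested genes in that direction. The log2 fold change of Cxcl9 was 1.46 ± 0.43 (SE), with an edgeR adjusted p of 0.101. The WT tumours alone spanned 24.6 to 98.4 CPM. With DESeq2 the adjusted p was 0.0137 at the same log2 fold change of 1.46. Leaving out Alb-Cre Stat3f/f 6 gave the smallest log2 fold change among the fits without 1 tumour, 1.15.

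Cxcl10, also called IP-10, was at 5.33, 5.87, 6.10, 4.96, 6.20 and 5.12 CPM in WT tumours 1 to 6. In the tumours of Alb-Cre Stat3f/f hosts, in order, it was at 14.9, 11, 8.12, 7.94, 9.33 and 24.8 CPM. The WT tumours lay close together, and every Alb-Cre Stat3f/f tumour was above all of them. Cxcl10 rose by 1.19 ± 0.26 on the log2 scale (6 of 6 tumours above every WT tumour, edgeR adjusted p = 0.0172). Alb-Cre Stat3f/f 6 held 196 of the 492 counts of its group, and without it the log2 fold change was 0.86 with an edgeR adjusted p of 0.0485. Without Alb-Cre Stat3f/f 1 it was 1.14 and no longer called (edgeR adjusted p 0.0509). Without the 5 acinar-rich tumours, which left 5 WT and 2 Alb-Cre Stat3f/f tumours, Cxcl10 still passed, with a log2 fold change of 1.64 (edgeR adjusted p 0.0251).

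Cxcl11 was at 0.454, 0.819, 3.36, 1.18, 2.28 and 0.415 CPM in WT tumours 1 to 6. The 6 Alb-Cre Stat3f/f tumours held 4.22, 3.50, 1.71, 2.10, 3.32 and 7.84 CPM. The groups overlapped, with 3 of 6 Alb-Cre Stat3f/f tumours above every WT tumour. The counts were few, 64 in WT tumours and 149 in those of Alb-Cre Stat3f/f hosts, and WT 3 alone held 27 of the former. The log2 fold change was 1.43 ± 0.50 (edgeR adjusted p 0.117) and 1.91 without WT 3 (edgeR adjusted p 0.0682). GENCODE classes Cxcl11 as a polymorphic pseudogene in the reference strain, meaning that it codes for protein in some mouse strains and not in others, so its tags need not stand for a ligand.

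The 3 CXCR3 ligand genes lie side by side on the minus strand of chromosome 5 (GRCm38). Cxcl9 spans 92321347 to 92328079, Cxcl10 spans 92346638 to 92348889 and Cxcl11 spans 92359544 to 92365485, which makes 44.1 kb in all. Art3, on the other strand, runs across Cxcl10 and Cxcl11 and shares 133 exonic bases with Cxcl10. It had 68 counts in WT tumours and 62 in those of Alb-Cre Stat3f/f hosts, against 256 and 492 of Cxcl10. With Cxcl11 it shares 0 exonic bases. Gm2673, a processed pseudogene on the other strand, shares 1582 exonic bases with Cxcl11 and has no entry among the deposited counts. The sources used here do not give the strand setting of the counting, and without strand the reads of overlapping genes cannot be told apart.

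The promoters of the ligand that passed and of its more abundant neighbour are shown because both genes separated the genotypes and both are known targets of interferon signalling. Each is the 250 bases before the RefSeq start site (GRCm38.p6), 5' to 3' on the minus strand. Capitals mark matches on either strand to 4 motifs: the interferon-stimulated response element ISRE (GAAA, any 2 bases, GAAA), the interferon gamma activated site GAS (TTCNNNGAA), the NF-kappaB consensus, and the AP-1 site (TGANTCA).
Cxcl10, chr5:92348890-92349139: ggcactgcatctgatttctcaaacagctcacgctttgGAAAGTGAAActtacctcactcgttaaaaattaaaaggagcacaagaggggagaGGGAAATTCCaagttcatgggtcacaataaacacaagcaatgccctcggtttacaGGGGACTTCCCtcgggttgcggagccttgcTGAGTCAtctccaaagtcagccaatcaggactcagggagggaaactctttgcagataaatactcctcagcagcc
Cxcl9, chr5:92328080-92328329: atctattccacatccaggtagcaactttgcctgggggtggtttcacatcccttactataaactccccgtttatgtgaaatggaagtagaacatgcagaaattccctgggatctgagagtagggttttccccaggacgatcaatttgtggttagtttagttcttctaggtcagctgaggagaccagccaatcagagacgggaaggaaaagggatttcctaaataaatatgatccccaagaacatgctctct

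The Cxcl10 window held an ISRE match 213 to 204 bases before the start, NF-kappaB matches at 159 to 150 and at 104 to 94 (overlapping matches on both strands), and an AP-1 match at 74 to 68. It held no GAS match. The Cxcl9 window held none of the 4, which says only that these letters are not in those bases. Of 32851 promoter windows of the same length, 2.98% held an ISRE match, 7.02% GAS, 7.25% NF-kappaB and 6.75% AP-1. Promoters of 5 of the 7 members were in the table. Among the other three, Dpp4 held 1 ISRE match, 52 to 43 bases before its start, and Cxcr3 and Cxcr6 held none of the 4 motifs. A match is a description of the letters and was not tested for binding.

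Cxcr3 (chromosome X, 101731535 to 101734269, minus strand) was at 0.567, 1.09, 1.37, 2.95, 1.79 and 1.66 CPM in WT tumours 1 to 6. Its levels in the Alb-Cre Stat3f/f group were 1.41, 5.13, 1.71, 1.5, 3.45 and 3.16 CPM. Alb-Cre Stat3f/f 2, 5 and 6 lay above every WT tumour, and the other three within the WT range. The log2 fold change was 0.78 ± 0.44 (edgeR adjusted p 0.340). The counts, 72 in WT tumours and 100 in those of Alb-Cre Stat3f/f hosts, gave a ratio of scaled group sums of 1.72, with a 95% exact binomial interval of 1.26 to 2.37 that covers counting error only.

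Dpp4, a membrane protease of T cells, fibroblasts and epithelium (chromosome 2, 62330073 to 62412231, minus strand), was at 3.40, 3.96, 4.36, 3.42, 5.87 and 0.968 CPM in WT tumours 1 to 6. In the tumours of Alb-Cre Stat3f/f hosts, in order, it was at 11.4, 7.0, 3.21, 4.05, 4.09 and 4.55 CPM. Alb-Cre Stat3f/f 1 and 2 lay above every WT tumour and WT 6 below all others. The log2 fold change was 0.64 ± 0.37 (edgeR adjusted p 0.364). It was 0.32 without Alb-Cre Stat3f/f 1 and 0.36 in a fit with the acinar score as covariate.

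Cxcl16 (chromosome 11, 70453983 to 70459984, minus strand) was at 90.2, 103, 101, 108, 68.8 and 91.5 CPM in WT tumours 1 to 6. The 6 Alb-Cre Stat3f/f tumours held 78.0, 72.1, 72.3, 95, 112 and 138 CPM. The lowest values of both groups, under 80 CPM, were in 4 acinar-rich tumours, Alb-Cre Stat3f/f 1 to 3 and WT 5. The part of acinar content in these levels was not tested. The log2 fold change was 0.02 ± 0.15 (edgeR adjusted p 0.967), and 0.34 without the acinar-rich tumours (edgeR adjusted p 0.322). Cxcl16 shares 552 exonic bases with Zmynd15 on the other strand, which had 394 counts in WT tumours and 322 in those of Alb-Cre Stat3f/f hosts against 4353 and 3689 of Cxcl16.

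Cxcr6 (chromosome 9, 123806475 to 123811760, plus strand, within the span of Fyco1 on the other strand and sharing 0 exonic bases with it) was at 2.04, 5.32, 3.74, 5.19, 6.20 and 2.35 CPM in WT tumours 1 to 6. Its levels in the Alb-Cre Stat3f/f group were 6.5, 5.60, 3.21, 6.29, 5.37 and 10.6 CPM. Alb-Cre Stat3f/f 1, 4 and 6 lay above every WT tumour, and WT 1 and WT 6, the tumours lowest in Cxcl9, were lowest. The log2 fold change was 0.62 ± 0.32 (edgeR adjusted p 0.303). It was 0.38 without Alb-Cre Stat3f/f 6.

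**Figure D2:**
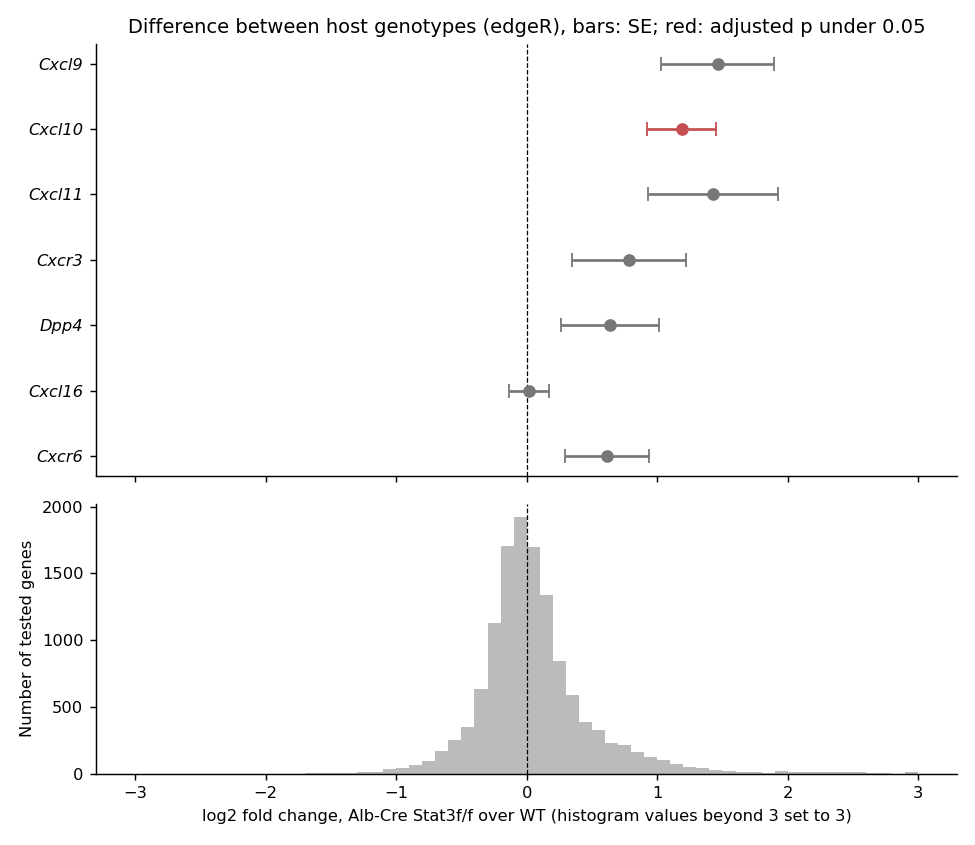
Upper panel, log2 fold change (Alb-Cre Stat3f/f over WT) of each member with its SE, red where the adjusted p is under 0.05; lower panel, the same quantity for all 12856 tested genes. The CXCR3 ligands sit between 1.19 and 1.46, the receptors and Dpp4 between 0.62 and 0.78, and Cxcl16 at 0.02.

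The CXCR3 ligands were set against the CXCR6 ligand by the log2 ratio within a tumour. Library scaling cancels in this value apart from the prior count of 2. These 4 ratios were chosen after the values were seen, when Cxcl9 and Cxcl10 already separated the groups and Cxcl16 did not. Their p-values therefore describe these tumours and give no further support. They are exact two-sided permutation p-values with Benjamini-Hochberg adjustment over the 4. The Cxcl9 to Cxcl16 ratio was -0.73 ± 0.87 in WT tumours and 0.82 ± 0.35 in those of Alb-Cre Stat3f/f hosts (SD, n = 6), 1.56 higher in the latter, with no overlap (exact permutation p = 0.0022, the smallest that 924 relabellings can give, adjusted p = 0.0087). The Cxcl10 to Cxcl16 ratio was 1.04 higher (4 of 6 tumours above every WT tumour, exact permutation adjusted p = 0.0130). The Cxcl11 to Cxcl16 ratio was 1.39 higher (3 of 6 tumours above every WT tumour, exact permutation adjusted p = 0.0317). With a prior count of 0.5 this ratio was 1.59 higher. The Cxcl11 ratio lost its call without any 1 of 7 tumours, namely WT 1, 2, 4 or 6 or Alb-Cre Stat3f/f 1, 2 or 6 (exact permutation adjusted p up to 0.0635). For the receptors, the Cxcr3 to Cxcr6 ratio was 0.09 higher (exact permutation adjusted p = 0.838), and without 1 tumour it ran from -0.13 to 0.25.

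Macrophage and monocyte markers were also more abundant in Alb-Cre Stat3f/f tumours: 7 of 10 rose, 0 fell and 3 did not pass, and their summed level was 1038 to 1584 CPM in WT tumours and 1569 to 2434 CPM in those of Alb-Cre Stat3f/f hosts. Csf1r and C1qa gave most of that sum, with means of 405 and 473 CPM in WT tumours, and Csf1r did not pass (edgeR adjusted p 0.0833). In bulk tissue, more cells of a type and more RNA per cell cannot be told apart. Set against these markers within a tumour, Cxcl9 was higher by 0.94 on the log2 scale (exact two-sided permutation p = 0.0173, adjusted p = 0.0433 over 5 ratios, 4 of 6 tumours above every WT tumour). Cxcl16 fell by 0.61 relative to the same markers (exact permutation p = 0.0087, adjusted p = 0.0433, 3 of 6 tumours below every WT tumour). Cxcl10 differed by 0.42 (exact permutation adjusted p = 0.224). The Cxcl9 call held when either WT 2 or Alb-Cre Stat3f/f 3 was left out and was lost without any 1 of the other 10 tumours. The Cxcl16 call held when 1 of WT 2, WT 5 and Alb-Cre Stat3f/f 3 was left out and was lost without any 1 of the other 9 (exact permutation adjusted p up to 0.0866). With Adgre1, Csf1r and Cd68 as the sole markers both had an exact permutation adjusted p of 0.0595. That smaller sum was mostly Csf1r, since Adgre1 and Cd68 had means of 25.1 and 32.4 CPM in WT tumours.

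T cell markers had positive fold changes in 11 of 11 tested genes, of which 1 rose and 10 did not pass. DESeq2 called 6 of them higher, and 8 were higher at an unadjusted p under 0.05 in edgeR. The markers summed to 66.4 to 107 CPM in WT tumours and 105 to 182 CPM in those of Alb-Cre Stat3f/f hosts. Relative to that sum, the difference on the log2 scale was 0.09 for Cxcr3 (exact permutation adjusted p = 0.968) and 0.01 for Cxcr6 (exact permutation adjusted p = 0.968). Without 1 tumour these differences ran from -0.12 to 0.21 and from -0.13 to 0.14. Thy1, which fibroblasts also express, alone gave 45.8 to 58.5 CPM of the WT sum, and its part in these differences was not tested by itself. Against Cd3d, Cd3e, Cd3g and Cd247 alone, Cxcr3 was lower by 0.46 (a difference of -0.46, exact permutation adjusted p = 0.219) and Cxcr6 by 0.54 (a difference of -0.54, exact permutation p = 0.0390, adjusted p = 0.0649). Of the natural killer markers 2 of 5 tested genes rose, Nkg7 and Klrd1, and Klra8 was at 0 counts in all tumours; their summed level was 14.0 to 30.8 CPM in WT tumours and 30.4 to 62.8 CPM in those of Alb-Cre Stat3f/f hosts. The part of T cell and natural killer cell content in the receptor levels was not tested beyond these ratios.

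**Figure D3:**
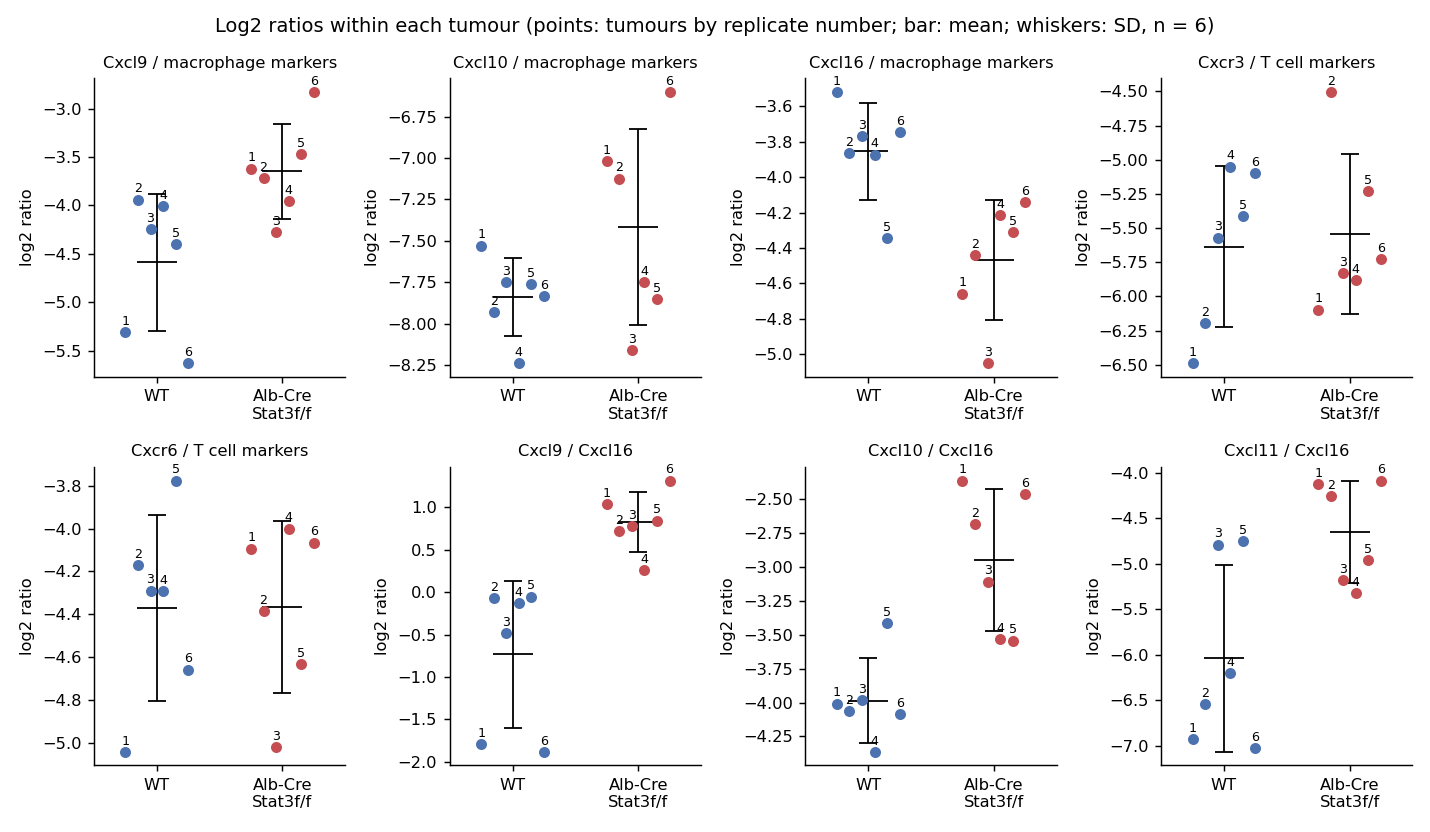
Log2 ratios within each tumour, of the ligands to summed macrophage and monocyte markers, of the receptors to summed T cell markers, and of the CXCR3 ligands to Cxcl16; WT in blue, Alb-Cre Stat3f/f in red, bars the mean and whiskers the SD (n = 6). The Cxcl9 to Cxcl16 ratio separates the groups, with a mean of -0.73 in WT tumours and 0.82 in those of Alb-Cre Stat3f/f hosts, and the receptor ratios overlap.

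Across the 12 tumours, 5 pairs of members were correlated on the log2 CPM scale, with permutation p-values and Benjamini-Hochberg adjustment over the 5. Cxcl9 and Cxcl10 varied together (Pearson r = 0.79, permutation p = 0.0023, adjusted p = 0.0115; Spearman rho = 0.83, permutation p = 0.0012, adjusted p = 0.0062). Without the 2 tumours farthest from the median of Cxcl9, r was 0.87. The pooled values and their p-values include the difference between genotypes, since tumours were permuted across both groups. For both genes every Alb-Cre Stat3f/f tumour lay above every WT tumour. With genotype means removed r was 0.51. Within WT tumours r was 0.36 and rho -0.09 (n = 6, exact permutation adjusted p = 0.720 and 0.919). Within Alb-Cre Stat3f/f tumours r was 0.82 and rho 0.71 (n = 6, exact permutation adjusted p = 0.229 and 0.681).

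No ligand and receptor pair passed. For Cxcl9 and Cxcr3, r was 0.59 and rho 0.53 (permutation adjusted p = 0.110 and 0.196), and r was 0.43 without the 2 farthest tumours. For Cxcl10 and Cxcr3, r was 0.44 and rho 0.43 (permutation adjusted p = 0.186 and 0.269), and r was 0.62 without the 2 farthest tumours. For Cxcl16 and Cxcr6, r was 0.30 and rho 0.10 (permutation adjusted p = 0.355 and 0.751), and r was 0.09 without the 2 farthest tumours. The groups differed for this pair. Within WT tumours r was -0.12 and rho 0.09 (n = 6, exact permutation adjusted p = 0.871 and 0.919). Within Alb-Cre Stat3f/f tumours r was 0.72 and rho 0.49 (n = 6, exact permutation adjusted p = 0.292 and 0.803). For the receptors Cxcr3 and Cxcr6, r was 0.54 and rho 0.38 (permutation adjusted p = 0.115 and 0.271), and r was 0.35 without the 2 farthest tumours. Cxcr6 lay closer to Cxcl9, the ligand of the other receptor, with r = 0.85 over 12 tumours and 0.82 with genotype means removed; this pair was chosen after its values were seen and has no test.

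**Figure D4:**
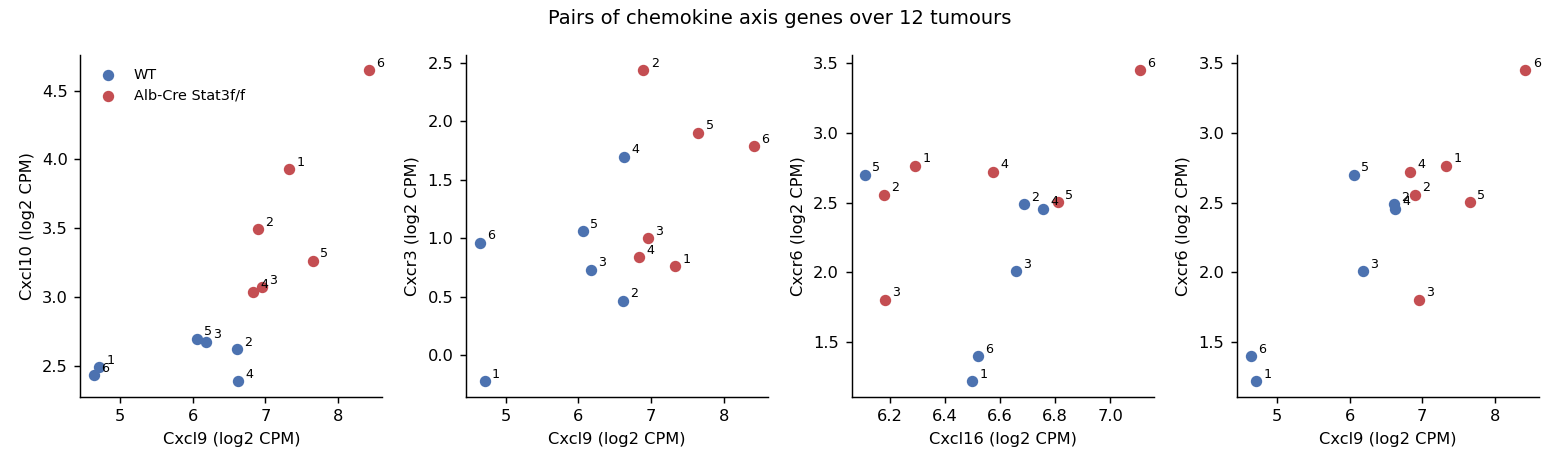
Log2 CPM of 4 pairs of members in the 12 tumours, WT in blue and Alb-Cre Stat3f/f in red, with replicate numbers. Cxcl9 and Cxcl10 vary together over both groups (r = 0.79, and 0.51 with genotype means removed). Cxcl16 and Cxcr6 have r = 0.30 over both groups, -0.12 within WT tumours and 0.72 within Alb-Cre Stat3f/f tumours (n = 6). WT 1 and WT 6 sit at the low end of Cxcl9 and Cxcr6.

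The genes most like each member were ranked by Pearson r over the 12 tumours with genotype means removed, among genes of at least 5 CPM. The points share library depth and tissue composition, and the values are descriptions. For Cxcl9 these were Igtp (r = 0.98) and Iigp1 (0.97), GTPases induced by interferon gamma, Tlr12 (0.96), AW112010 (0.95) and Dnase1l3 (0.94), and 106 of 10586 genes had an r over 0.8. For Cxcl10, Loxl4 (0.86), Ldah (0.84), Ascc2 (0.80), Nsd2 (0.79) and the Schlafen gene Slfn1 (0.78) led, and 2 genes had an r over 0.8. For Cxcl11 they were Kif14 and Socs1, an inhibitor of cytokine signalling (both 0.85), Taf10 (0.83), Flt3l (0.82) and the interferon-induced Bst2 (0.82).

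Cxcr6 was most like Gbp7 (r = 0.95), an interferon-induced GTPase, the cytotoxic T cell co-receptor gene Cd8a (0.94), Uba7 (0.94), Gimap4 (0.90), a lymphocyte GTPase, and Zbp1 (0.88). Cxcr3, at few counts, was most like Msra (0.90), Unc119 (0.86), Cmtm7 (0.84), Acaa1a (0.82) and Tmem250-ps (0.79). Dpp4 followed Aurka (0.90), a mitotic kinase, Hcls1 (0.90), Prim1 (0.90), Tspan31 (0.88) and Nxn (0.87). Cxcl16 followed Gsdmd (0.93), which encodes the pore former gasdermin D, the zinc transporter Slc39a4 (0.92), Scmh1 (0.90) and Mfge8 (0.90). No gene was among the first 5 of more than 1 member.

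The other genes of the pathway were taken in 5 lists. The inducer list held genes of the interferon gamma, type I interferon and NF-kappaB pathways that induce the ligands, with the pathway inhibitors Socs1 and Nfkbia among them. Of its 18 tested genes 1 rose, 0 fell and 17 did not pass (median log2 fold change 0.22). DESeq2 called 4 of them higher, and 7 were higher at an unadjusted p under 0.05 in edgeR. The riser was Irf8, a transcription factor of dendritic cells and macrophages, by 0.78 ± 0.16 on the log2 scale (edgeR adjusted p = 0.0117). Irf1 differed by 0.57 ± 0.20 on the log2 scale (edgeR adjusted p 0.132) and was named after its values were seen. Lower in the same list at an unadjusted p under 0.05 were Ifngr2, a chain of the interferon gamma receptor, and Tnf. Their log2 fold changes were -0.36 ± 0.12 and -0.65 ± 0.31 (edgeR adjusted p 0.109 and 0.256). Ifng itself had 11 counts in WT tumours and 21 in those of Alb-Cre Stat3f/f hosts and, with Tbx21, did not pass the filter on low counts.

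Of 10 tested genes for shedding, truncation or capture of the ligands, 0 rose, 1 fell and 9 did not pass (median log2 fold change 0.04). Sdc1, a heparan sulfate proteoglycan that binds chemokines, fell by 0.51 ± 0.10 on the log2 scale (edgeR adjusted p = 0.00809, 239 ± 30.8 CPM in WT tumours and 168 ± 12.5 CPM in those of Alb-Cre Stat3f/f hosts). Of this list 2 genes were higher and 3 lower at an unadjusted p under 0.05, and DESeq2 called 2 higher and 2 lower. The sheddases of Cxcl16 stood at the same level in both groups, Adam10 at 111 ± 7.69 and 111 ± 10.8 CPM and Adam17 at 97.9 ± 9.05 and 97.9 ± 12.4 CPM in the WT and the Alb-Cre Stat3f/f group (SD, n = 6).

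Of 20 tested genes for signalling below chemokine receptors and for migration, 4 rose, 0 fell and 16 did not pass (median log2 fold change 0.30). Dock2, a Rac activator of leukocytes, rose by 0.99 ± 0.14, Rgs2, a regulator of G protein signalling, by 0.97 ± 0.13, Rac2, a leukocyte GTPase, by 0.79 ± 0.17, and Coro1a, an actin regulator of leukocytes, by 0.77 ± 0.15 on the log2 scale. The edgeR adjusted p was 0.00075, 0.00069, 0.0184 and 0.00757 in that order. All 6 Alb-Cre Stat3f/f tumours were above every WT tumour for each of the 4, as for 1.37% of all tested genes. The 4 were named because they passed on these same tumours, so the separation is a description and no further test.

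Of 13 tested genes for other homing receptors, 4 rose, 0 fell and 9 did not pass (median log2 fold change 0.70). The list was drawn up for lymphocytes but is not confined to them, and its Xcr1 was also among the dendritic cell markers. Among them Ccr2, a monocyte and T cell chemokine receptor, rose by 1.29 ± 0.25 and Ccr7, the lymph node homing receptor, by 1.14 ± 0.28 on the log2 scale. The edgeR adjusted p was 0.0143 and 0.0274 in that order.

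Of 12 tested genes for other CXC chemokines and receptors, 0 passed by edgeR or by DESeq2, and 4 had an unadjusted p under 0.05, all higher (median log2 fold change 0.37). Those with the smallest p were Cxcr4, the receptor of Cxcl12, with a log2 fold change of 0.53 ± 0.18 (edgeR adjusted p 0.108), and Cxcl12 with 1.05 ± 0.39 (edgeR adjusted p 0.165). In the inducer, signalling, homing and other CXC lists 0 genes were lower by DESeq2. At an unadjusted p under 0.05, 2 genes of the inducer list (Ifngr2 and Tnf) and 0 of the others were lower.

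Some of these calls were lost in edgeR fits without 1 tumour, without the acinar-rich tumours or with the acinar score as covariate. The fit without acinar-rich tumours had only 5 WT and 2 Alb-Cre Stat3f/f tumours. The part of acinar content in these calls was not tested. Over the alternatives other than those without 1 tumour, the log2 fold change ran from 0.76 to 0.79 for Irf8 and from -0.51 to -0.43 for Sdc1. Without the 5 acinar-rich tumours Irf8, Rac2, Ccr7 and Sdc1 no longer passed (adjusted p 0.134, 0.0710, 0.180 and 0.207), and in a fit with the acinar score as covariate Rac2 and Ccr7 did not (0.0599 and 0.0735). Rac2 also missed the threshold under at least 1 further alternative. The call was lost for Rac2 without Alb-Cre Stat3f/f 1 (adjusted p 0.0546), and for Ccr7 without WT 3 or 4 or Alb-Cre Stat3f/f 1, 2 or 6 (adjusted p up to 0.0644).

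**Figure D5:**
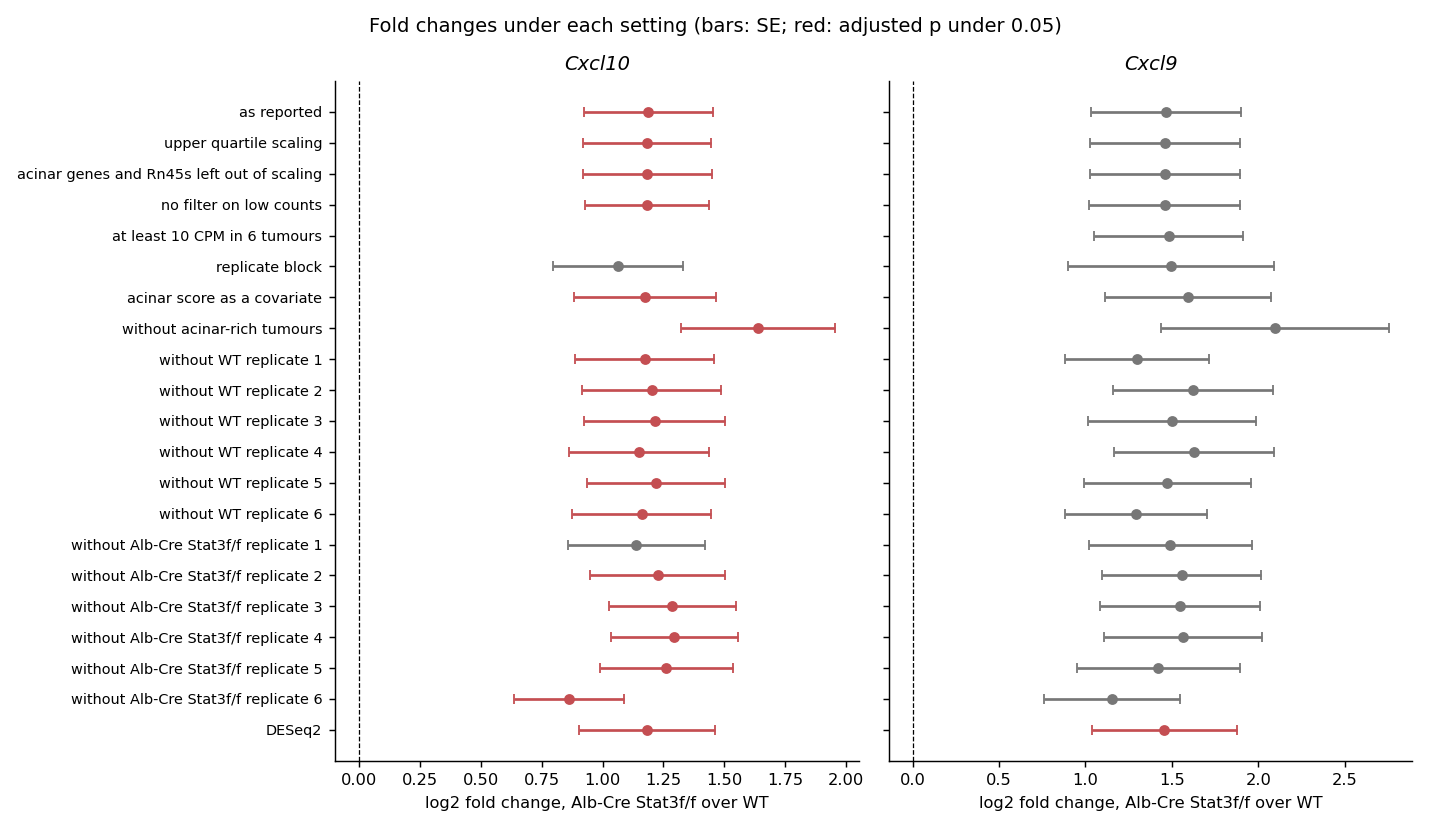
Log2 fold change (Alb-Cre Stat3f/f over WT) of Cxcl10 and Cxcl9 with its SE under each way of processing the counts and without each tumour in turn, red where the adjusted p is under 0.05. Every point is above 0; Cxcl10 runs from 0.86 to 1.64, and Cxcl9 passes with DESeq2 alone. Cxcl10 has no point where at least 10 CPM in 6 tumours was required, since it did not meet that filter.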

How the data were processed

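Counts per gene symbol were deposited by the authors without normalisation, as whole numbers. Per the labels' protocols, RNA came from fixed, paraffin-embedded sections and libraries were made with the QuantSeq 3' mRNA-Seq FWD kit. The submitters' processing notes name STAR and mm10; the sources used here do not give versions, the counting tool, the strand setting or filters. Of 24982 entries, 26 with a date number in place of a symbol (0.0690 to 0.166% of counts) were left out. Genes with low counts were removed by filterByExpr of edgeR 4.0.16 in R 4.3.3 (minimum count 10, minimum total count 15, proportion 0.7), and libraries were scaled by TMM. The groups were compared by a two-sided robust quasi-likelihood test on host genotype alone, with Benjamini-Hochberg adjustment over 12856 genes and a threshold of 0.05. DESeq2 1.42.0 was an alternative. A positive fold change means more in Alb-Cre Stat3f/f tumours. Log2 CPM for ratios and correlations used a prior count of 2. Ratios were tested by exact two-sided permutation over 924 relabellings, and correlations by 100000 permutations, exact within a genotype. The tests were checked on simulated data. No pair of libraries of 1 genotype was alike enough to be 1 library deposited again (lowest chi-square per gene 12.6). Gene positions are from GENCODE M21 (GRCm38).

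The members and the gene lists were chosen with earlier results of these data known. Named were all members; in each pathway list up to 4 genes past the threshold by smallest p, or the 2 with the smallest p where none passed; and the 5 genes most like each member. A few genes that this rule names are not reported here. Ifng, Tbx21, Adam10, Adam17, Irf1, Ifngr2, Tnf, Nfkbia and single marker genes were named outside that rule, after their values were seen. The cell type lists were T cell, natural killer cell, macrophage and monocyte, dendritic cell, fibroblast, endothelial, ductal, acinar, hepatocyte, and B and plasma cell markers.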

Additional observations from a re-analysis of the deposited data

How the results depend on the processing

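Cxcl10 and Cxcl9 kept a positive fold change under every alternative in which they were tested. The number of members higher was 2 with DESeq2, 0 where 10 CPM in 6 tumours was required (Cxcl10 did not meet that filter) and 0 with the replicate block, and it was 0 to 1 without 1 tumour. Over all genes, 287 were higher and 96 lower. The counts were 618 and 288 with DESeq2, 145 and 39 in a fit with the acinar score as covariate, and 83 and 14 without the acinar-rich tumours. Without 1 tumour, 141 to 471 genes were higher and 37 to 222 lower.

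The replicate numbers that the titles share did not pair the tumours: same-numbered tumours deviated together with r from -0.51 to 0.13, and 0 of 6 WT tumours were closest to their own number. With the replicate block 145 genes were higher and 44 lower, Cxcl10 had a log2 fold change of 1.06 with an edgeR Benjamini-Hochberg adjusted p of 0.0656, and Cxcl16 had -0.014. Cxcl12 passed with the block (edgeR adjusted p 0.0387) and under no other alternative (adjusted p 0.0572 to 0.631).

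The fold change of Cxcl16 ran from -0.13 to 0.083 without 1 tumour. Against macrophage markers, Cxcl9 was 0.91 and Cxcl16 -0.65 with fewer markers, and 1.48 and -0.47 without the acinar-rich tumours; without 1 tumour they ran from 0.74 to 1.07 and from -0.71 to -0.50. Against T cell markers, Cxcr3 was -0.46 and Cxcr6 -0.54 with fewer markers, and -0.12 to 0.21 and -0.13 to 0.14 without 1 tumour. Without the acinar-rich tumours the Cxcl9, Cxcl10 and Cxcl11 to Cxcl16 ratios were 1.95, 1.10 and 1.78 higher; the 5 WT and 2 Alb-Cre Stat3f/f tumours left give no exact two-sided permutation p under 0.0952. Without 1 tumour the Cxcl11 ratio ran from 1.19 to 1.64 and the Cxcr3 to Cxcr6 ratio from -0.13 to 0.25. Within WT tumours r was -0.23 for Cxcl10 and Cxcr3, -0.12 for Cxcl16 and Cxcr6 and 0.36 for Cxcl9 and Cxcl10. Within Alb-Cre Stat3f/f tumours these were 0.21, 0.72 and 0.82 in that order. Where no reason is given, the cause was not tested. The counts of Cxcr3 and Cxcl11 limit what these libraries can show of them.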

Other observations

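The remaining cell type lists were described in the same way. Of 7 endothelial genes, which include sources of the CXCR3 ligands, 0 passed by edgeR or by DESeq2, and 1 had an unadjusted p under 0.05 (median log2 fold change 0.08). Of 7 ductal epithelial genes 0 rose, 2 fell and 5 did not pass (median -0.34), and all 7 had a negative fold change. At an unadjusted p under 0.05, 4 were lower and 0 higher, and DESeq2 called 3 lower and 0 higher. Of 9 fibroblast genes 1 rose, 0 fell and 8 did not pass (median 0.41), while 3 were higher and 0 lower at an unadjusted p under 0.05, and DESeq2 called 2 higher. Of 7 dendritic cell genes, another source of Cxcl9, 1 rose and 6 did not pass (median 0.82). At an unadjusted p under 0.05, 5 were higher and 0 lower, and DESeq2 called 2 higher. The summed level of the dendritic cell markers was 37.5 to 75.2 CPM in WT and 77.0 to 124 CPM in Alb-Cre Stat3f/f tumours, with no overlap. Of 5 tested B and plasma cell genes 0 passed by edgeR, 3 were higher and 1 lower at an unadjusted p under 0.05, and DESeq2 called 1. Of 15 acinar genes 0 passed by edgeR or by DESeq2, and 5 had an unadjusted p under 0.05, all higher. Of 7 hepatocyte genes 0 passed by either, and 0 had an unadjusted p under 0.05.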
